A study of Mus musculus with 8 samples.

Results

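The genes described are 33 genes of sterol and lipid metabolism, chosen by name and all found among the 23389 gene symbols listed for each library. They comprise 16 enzymes of sterol synthesis, 5 genes of the SREBP system, 6 genes of sterol transport and storage and 6 genes of fatty acid synthesis. Poly-A RNA of mouse cells was sequenced in 8 libraries, 2 for each of 4 groups. D3-GFP embryonic stem (ES) cells came from the 129S2/SvPas background. Mouse embryonic fibroblasts (MEF) and both kinds of induced pluripotent stem (iPS) clone were BALB/c. One kind of clone received Oct4, Klf4 and Sox2 together with 10 ng/mL IL6 (3F + IL6) and the other received 4 factors (4F), and each clone arose independently. No age was given for the fibroblasts, and the sources used here do not say when IL6 was present or how the factors were delivered. Strain and cell origin changed together in each comparison with ES cells and cannot be told apart there. The factor set and IL6 likewise changed together between the kinds of clone.

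Cholesterol is built from acetyl-CoA through mevalonate, farnesyl diphosphate, squalene and lanosterol. When membrane sterol is low, SCAP carries the SREBP transcription factors from the endoplasmic reticulum to the Golgi, where they are cut and released to the nucleus, and INSIG proteins hold SCAP back when sterol is high. SREBP2 acts mainly on sterol genes and SREBP1 mainly on fatty acid genes. Sterol leaves cells through ABC transporters onto lipoproteins, which hold apolipoproteins such as apolipoprotein E, or is stored as ester.

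Values are RPKM, reads scaled to gene length and library size, so that levels of different genes can be set side by side. Libraries held an estimated 11720000 to 17940000 reads. Differences are in log2(RPKM + 1) with the standard error (SE) of a limma fit of all 8 libraries, and a gene is said to rise, fall, or be called higher or lower only where the adjusted p was under 0.05. The adjustment ran over 13200 genes, those that reached an RPKM of 1 in 2 or more libraries. All 33 genes passed that filter. The pluripotency markers summed to 4973 to 6110 RPKM in the ES and iPS libraries and to 6.81 and 8.51 in MEF, and the fibroblast markers to 2518 and 2502 in MEF, so the groups matched their labels. Replicates were not equally close: the median SD of the 33 genes was 0.020 in ES, 0.026 in MEF, 0.067 in 4F and 0.176 in 3F + IL6 on the log2 scale. In bulk RNA, fewer cells of a type and less RNA per cell cannot be told apart.

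The bases before the start of a gene hold words that SREBP and its partners are known to read. RefSeq windows (GRCm38.p6, the mm10 assembly) were found for 25 of the 33 genes, 35 windows in all, and the 250 bases before each start were searched on both strands for the sterol regulatory element TCACNCCAC, the NF-Y box CCAAT and the GC box GGGCGG. Capitals mark these words in either orientation, each sequence reads 5′ to 3′ on the strand of its gene, and no marked words overlap in the windows shown. Hmgcs1 is shown because its window was the only member window with the sterol regulatory element word. Mvd and Apoe were chosen after their values were seen, as a sterol enzyme and a transport gene that differed strongly between the pluripotent cells and MEF.
Hmgcs1, chr13:119690101-119690350, plus strand: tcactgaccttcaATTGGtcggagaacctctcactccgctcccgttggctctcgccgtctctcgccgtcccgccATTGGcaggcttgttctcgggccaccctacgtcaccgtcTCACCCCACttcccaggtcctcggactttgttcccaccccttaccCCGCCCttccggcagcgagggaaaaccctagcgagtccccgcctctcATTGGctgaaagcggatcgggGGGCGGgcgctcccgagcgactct
Mvd, chr8:122443423-122443672, minus strand: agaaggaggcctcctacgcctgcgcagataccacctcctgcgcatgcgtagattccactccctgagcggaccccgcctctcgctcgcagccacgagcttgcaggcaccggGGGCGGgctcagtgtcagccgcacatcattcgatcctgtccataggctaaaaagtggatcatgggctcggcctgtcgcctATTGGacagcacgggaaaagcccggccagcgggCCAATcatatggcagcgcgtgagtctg
Apoe, chr7:19699189-19699438, minus strand: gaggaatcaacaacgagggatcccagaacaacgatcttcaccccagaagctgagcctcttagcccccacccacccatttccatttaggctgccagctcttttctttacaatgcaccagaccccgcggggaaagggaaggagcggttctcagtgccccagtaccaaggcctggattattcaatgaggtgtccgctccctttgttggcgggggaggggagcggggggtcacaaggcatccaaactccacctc
In Hmgcs1 the sterol regulatory element word began 137 bases before the start, between NF-Y boxes at 176 and 45. These distances are from the RefSeq start. GENCODE M21 starts Hmgcs1 later, at base 119690379, and the first bases after the RefSeq start were not found in its transcripts. Mvd had a GC box at 140 and NF-Y boxes at 60 and 27, and the Apoe window had none of the 3 words. Over all 32851 windows of the table, 1.05% held the sterol regulatory element word, 33.8% an NF-Y box and 32.7% a GC box. Among the 35 member windows these shares were 2.86%, 54.3% and 62.9%. A word match is a description of the letters and shows neither binding nor its absence.

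Against MEF, most of the 33 genes were higher in all 3 kinds of pluripotent cell. In ES, 21 genes were called higher and 5 lower, beside 49.7% higher and 32.0% lower among all genes tested. In 3F + IL6 clones, 22 were higher and 4 lower, beside 49.4% and 32.6%, and in 4F clones 23 were higher and 5 lower, beside 49.2% and 34.4%. The median difference of the members was 0.70, 0.81 and 0.85 in the same order, against 0.27, 0.26 and 0.25 for all genes tested. Quantile normalization lowered the median over all genes by more than 0.1 in these comparisons, to 0.15, 0.06 and 0.09, and the members' medians were then 0.58, 0.51 and 0.72. With that scaling 21 members were called higher in each comparison, and 9, 8 and 6 lower in the same order. Of all 13200 genes, 10496, 10566 and 10809 were then called in either direction. All 3 comparisons share the MEF libraries. Both MEF libraries lay below all other libraries for 20 members, beside 45.4% of all genes tested, and above them for 5, Mvk, Hsd17b7, Scap, Insig2 and Soat1, beside 29.1%.

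Among the members, the 16 enzymes of sterol synthesis were mostly higher in the pluripotent cells than in MEF. Their RPKM summed to 764 and 759.9 in ES, 800 and 692 in 3F + IL6 clones, 783 and 751 in 4F clones, and 393 and 383 in MEF, a ratio to MEF of 1.96, 1.92 and 1.98. Of the 16 enzymes, 13 were called higher in ES than in MEF and 1 lower, with a median of 1.14. Among all genes tested, 49.7% were higher and 32.0% lower, with a median of 0.27. In 3F + IL6 clones 12 enzymes were higher and 1 lower, beside 49.4% and 32.6% of all genes. In 4F clones 12 were higher and 2 lower, beside 49.2% and 34.4%. The 8 further sterol synthesis genes counted below were split in direction against MEF. The plot of enzyme levels in pathway order shows MEF leftmost for most enzymes.

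**Figure D1:**
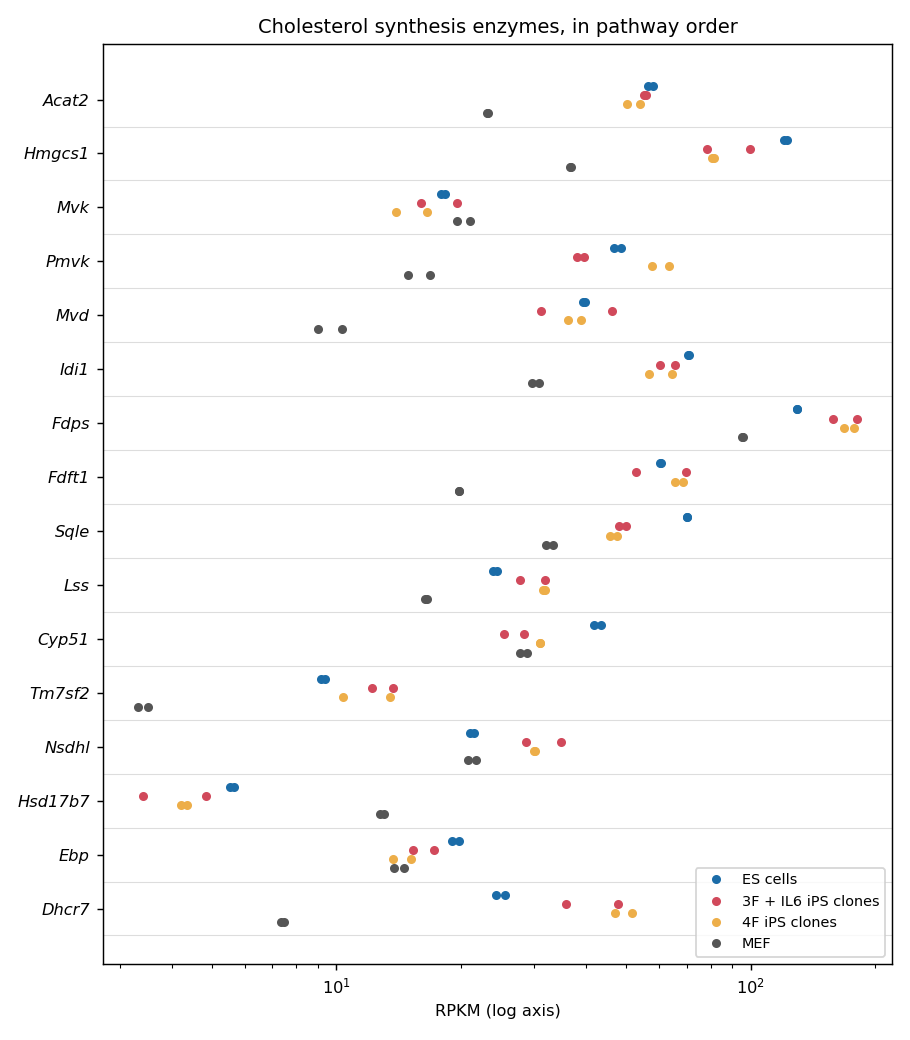
RPKM of the 16 sterol synthesis enzymes on a log axis, from the first step at the top to the last at the bottom, with 1 point per library coloured by group. MEF points lie to the left for most enzymes, and the exceptions are Mvk and Hsd17b7, where they lie to the right, Cyp51 and Ebp, where they lie among or next to the clones, and Nsdhl, where they lie among the ES points.

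In the mevalonate stage, Hmgcs1 makes HMG-CoA and was among the more abundant enzymes. It had 120.5 and 122.5 RPKM in ES, 99.4 and 78.5 in 3F + IL6 clones, 81.4 and 80.8 in 4F clones, and 36.6 and 36.8 in MEF. The clones lay between the ES and MEF libraries without overlap. Of the exonic bases of Hmgcs1, 16% overlap Gm48342 on the opposite strand, and the use of strand is not known. Hmgcs1 was higher than in MEF by 1.70 ± 0.10 (SE; limma adjusted p = 3.24e-06) in ES, 1.25 ± 0.10 (adjusted p = 1.72e-05) in 3F + IL6 and 1.12 ± 0.10 (adjusted p = 2.8e-05) in 4F. Against ES it fell by 0.45 in 3F + IL6 (adjusted p = 0.00611) and by 0.58 in 4F (adjusted p = 0.00191); without 3F + IL6 clone 2 the former was −0.29. Acat2, which joins acetyl-CoA units at the first step, stayed within 50.4 to 58.1 RPKM in the 6 pluripotent libraries and was 23.2 and 23.1 in MEF. Mvd, the decarboxylase that closes the mevalonate stage, had 39.8 and 39.3 RPKM in ES, 46.2 and 31.2 in 3F + IL6 clones, 38.8 and 36.2 in 4F clones, and 10.3 and 9.005 in MEF. The clones spread across the ES level and all lay above MEF, by 1.87 ± 0.17 in 3F + IL6 (adjusted p = 2.95e-05) and 1.85 ± 0.17 in 4F (adjusted p = 2.93e-05).

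The mevalonate kinases did not move alike. Mvk, the first kinase, was 17.9 and 18.2 RPKM in ES, 16.0 and 19.5 in 3F + IL6 clones, 13.9 and 16.6 in 4F clones, and 21.0 and 19.6 in MEF, the highest group by a narrow margin. It was called in 4F against MEF (−0.39 ± 0.11, adjusted p = 0.0144), a call lost without 4F clone 2 (−0.28, adjusted p = 0.0917) or without the first MEF library (−0.34, adjusted p = 0.0802). Pmvk, the second kinase, had 48.5 and 46.7 RPKM in ES, 39.6 and 38.1 in 3F + IL6 clones, 63.6 and 57.9 in 4F clones, and 16.8 and 14.9 in MEF. Its 4 groups did not overlap, in the order 4F, ES, 3F + IL6, MEF. Against ES it was higher in 4F (0.34 ± 0.08, adjusted p = 0.00613) and lower in 3F + IL6 (−0.29 ± 0.08, adjusted p = 0.0143); the latter call was lost without the first (−0.26, adjusted p = 0.0872) or second ES library (−0.31, adjusted p = 0.0516).

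From isopentenyl diphosphate to squalene, Idi1, the isomerase, was 70.8 and 70.5 RPKM in ES, 65.6 and 60.3 in 3F + IL6 clones, 56.9 and 64.5 in 4F clones, and 30.8 and 29.7 in MEF. The clones lay between ES and MEF. Its call in 4F against ES (−0.22 ± 0.07, adjusted p = 0.0342) was lost under median centring, quantile normalization, limma without a trend, the replicate block and 5 of the 8 left-out libraries, with adjusted p up to 0.174 without 4F clone 1, where the difference was −0.13. Fdps makes farnesyl diphosphate, the branch point to sterols and prenylated proteins, and had the highest level of the 16 enzymes. It was 129 in both ES libraries, 180.1 and 158 in 3F + IL6 clones, 178 and 168 in 4F clones, and 95.5 and 95.7 in MEF. All 4 clones lay above ES and ES lay above MEF, with differences to ES of 0.38 ± 0.07 (adjusted p = 0.00227) in 3F + IL6 and 0.42 ± 0.07 (adjusted p = 0.00137) in 4F. The annotation places 77.4% of Fdps exonic bases inside another protein-coding gene entry, Gm43738, on the same strand, so reads of these entries cannot be told apart. Fdft1, squalene synthase, was 60.6 and 60.4 in ES, 69.7 and 52.8 in 3F + IL6 clones, 68.8 and 65.5 in 4F clones and 19.7 in both MEF libraries, and 20.9% of its exonic bases overlap Ctsb on the opposite strand. For Fdft1 the 3F + IL6 clones spread across the ES and 4F levels, the 4F clones lay above ES, and all lay above MEF; it was not called between clones and ES.

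After squalene, the enzymes fell into genes that were lower and genes that were higher in the clones than in ES. Sqle, the squalene monooxygenase, had 70.1 RPKM in both ES libraries, 50.1 and 48.2 in 3F + IL6 clones, 47.7 and 45.8 in 4F clones, and 33.4 and 32.0 in MEF. The clones lay between ES and MEF, and Sqle fell against ES by 0.50 in 3F + IL6 (SE 0.05, adjusted p = 0.000211) and by 0.58 in 4F (SE 0.05, adjusted p = 0.00011). Cyp51, the lanosterol demethylase, had 43.5 and 41.8 RPKM in ES, 28.4 and 25.3 in 3F + IL6 clones, 30.9 in both 4F clones, and 28.9 and 27.7 in MEF. ES was the high group, and the clones lay at the MEF level. Cyp51 fell against ES by 0.65 (SE 0.07, adjusted p = 0.000225) and 0.45 (SE 0.07, adjusted p = 0.00106), and it was not called between either kind of clone and MEF. Ebp, a sterol isomerase, was 19.0 and 19.8 in ES, 17.2 and 15.3 in 3F + IL6 clones, 15.1 and 13.7 in 4F clones, and 14.6 and 13.8 in MEF, again with ES highest. It fell by 0.41 in 4F (adjusted p = 0.00414). Its call in 3F + IL6 (−0.24, adjusted p = 0.0367) was lost under quantile normalization (−0.22, adjusted p = 0.084), in a fit of the 4 libraries compared (adjusted p = 0.0799) and without either ES library, 3F + IL6 clone 2 or either MEF library, with adjusted p up to 0.17.

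Dhcr7, the reductase of the final step to cholesterol, rose most among the 16 enzymes against ES in both kinds of clone. It had 24.3 and 25.5 RPKM in ES, 47.9 and 35.8 in 3F + IL6 clones, 51.8 and 47.1 in 4F clones, and 7.34 and 7.47 in MEF. The clones lay above ES and ES above MEF, and the kinds of clone overlapped each other. The difference to ES was 0.71 ± 0.13 (adjusted p = 0.00251) in 3F + IL6 and 0.96 ± 0.13 (adjusted p = 0.000583) in 4F, and the difference to MEF was 2.34 ± 0.13 and 2.58 ± 0.13. Nsdhl, a dehydrogenase of the demethylation steps, was 21.5 and 21.0 in ES, 34.9 and 28.6 in 3F + IL6 clones, 29.9 and 30.2 in 4F clones, and 21.7 and 20.8 in MEF. ES and MEF overlapped and the clones lay above both, by 0.55 ± 0.09 (adjusted p = 0.00183) and 0.48 ± 0.09 (adjusted p = 0.00306) against ES. Lss, lanosterol synthase, was 24.5 and 23.8 in ES, 31.9 and 27.7 in 3F + IL6 clones, 31.8 and 31.5 in 4F clones and 16.6 and 16.4 in MEF, and rose against ES by 0.38 ± 0.07 in 4F (adjusted p = 0.00351). Tm7sf2, a sterol reductase, was 9.38 and 9.17 in ES, 12.2 to 13.7 in 3F + IL6 clones, 13.5 and 10.3 in 4F clones and 3.51 and 3.33 in MEF. In 3F + IL6 against ES the calls of Lss (0.29, adjusted p = 0.0121) and Tm7sf2 (0.44, adjusted p = 0.0186) were lost without the first ES library (adjusted p = 0.0519 and 0.071) or the second (adjusted p = 0.075 and 0.0851). That of Tm7sf2 was also lost without 3F + IL6 clone 1 (adjusted p = 0.0614), which lowered Lss to 0.19, and that of Lss in a fit of the 4 libraries compared (adjusted p = 0.053). Hsd17b7, a sterol ketone reductase, ran the other way, at 12.7 and 13.0 in MEF, 5.67 and 5.54 in ES and 3.41 to 4.85 in the 4 clones. It was called lower in ES than in MEF (−1.07 ± 0.13, adjusted p = 0.000176), while its call in 3F + IL6 against ES (−0.38, adjusted p = 0.0401) was lost without any single library other than 3F + IL6 clone 2, in a fit of the 4 libraries compared and with no filter, with adjusted p from 0.0636 to 0.141. Leaving out 3F + IL6 clone 1 moved it to −0.17 and leaving out clone 2 to −0.58.

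Against ES, the 33 genes were split in direction. In 3F + IL6 clones 13 were called higher and 11 lower, beside 33.1% and 30.3% of all genes tested. In 4F clones 14 were higher and 10 lower, beside 33.7% and 33.5%. The members' median difference was 0.00 and 0.10, and that of all genes 0.01 and 0.00. Among the 16 sterol enzymes, 5 were higher and 6 lower in 3F + IL6, and 5 were higher and 5 lower in 4F. These comparisons share the ES libraries. The plot of differences to ES shows the largest positive values in the transport group.

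**Figure D2:**
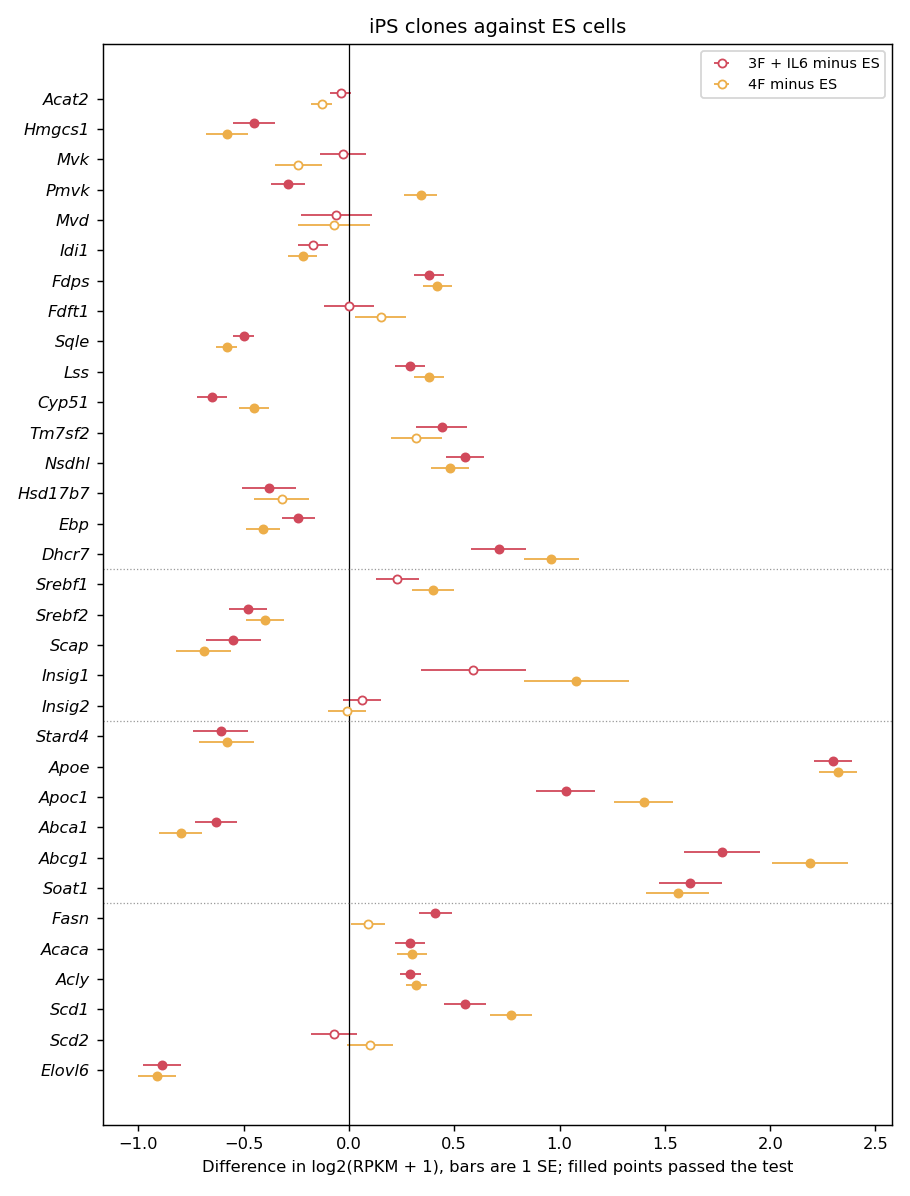
Difference in log2(RPKM + 1) between 3F + IL6 (red) or 4F clones (orange) and ES cells for the 33 genes, with bars of 1 SE and filled points where the adjusted p was under 0.05. Apoe lies farthest to the right at 2.30 and 2.32, and Elovl6 farthest to the left at −0.89 and −0.91.

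The SREBP system differed between its members. Srebf2, which encodes SREBP2, had 90.7 and 93.1 RPKM in ES, 70.1 and 61.5 in 3F + IL6 clones, 74.6 and 64.6 in 4F clones, and 33.6 and 32.7 in MEF. The clones lay between ES and MEF and overlapped each other. It was higher in ES than in MEF by 1.44 ± 0.09 (adjusted p = 3.72e-06), and fell against ES by 0.48 in 3F + IL6 (adjusted p = 0.00266) and by 0.40 in 4F (adjusted p = 0.00544). Srebf1, which encodes SREBP1, ranged over all libraries only from 16.3 in ES to 23.5 in 4F clone 1, with 19.3 and 18.8 in MEF, 21.2 and 17.6 in 3F + IL6 clones and 20.4 in 4F clone 2. Its call in 4F against ES (0.40 ± 0.10, adjusted p = 0.0107) was lost without the first (adjusted p = 0.0514) or second ES library (adjusted p = 0.0539) or without 4F clone 1 (0.30, adjusted p = 0.069). The RPKM of Srebf2 was 5.54 and 5.72 times that of Srebf1 in ES, 3.17 to 3.49 times in the clones and 1.74 times in both MEF libraries.

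Scap, the escort that carries SREBP, was 19.1 and 18.7 RPKM in ES, 10.8 and 14.7 in 3F + IL6 clones, 11.9 and 10.8 in 4F clones, and 23.9 and 22.9 in MEF. All 4 clones lay below the other libraries. Of the exonic bases of Scap, 18.6% overlap 5830462I19Rik on the opposite strand. Scap fell against ES by 0.55 in 3F + IL6 (SE 0.13, adjusted p = 0.00829), or 0.34 without 3F + IL6 clone 1, and by 0.69 in 4F (SE 0.13, adjusted p = 0.00267). Insig1, which retains SCAP and is itself a known SREBP target, had 48.1 and 49.0 RPKM in ES, 101 and 53.6 in 3F + IL6 clones, 107 and 101 in 4F clones, and 21.6 in both MEF libraries. Of the clones, 3 stood near 100 RPKM and 3F + IL6 clone 2 stood just above ES. Insig1 rose against ES in 4F (1.08 ± 0.25, adjusted p = 0.00689) and was not called in 3F + IL6 (0.59 ± 0.25, adjusted p = 0.0727), where the difference was 1.05 without clone 2 (adjusted p = 1.22e-05) and 0.14 without clone 1 (adjusted p = 0.0526). Insig2, the second retention protein, ran the other way, at 9.79 and 8.93 in ES, 9.06 and 10.5 in 3F + IL6 clones, 8.97 and 9.60 in 4F clones, and 14.2 and 13.6 in MEF. MEF was the high group, with no overlap. Insig2 was called lower than in MEF in ES (−0.53 ± 0.09, adjusted p = 0.00127), 3F + IL6 (−0.47 ± 0.09, adjusted p = 0.00231) and 4F (−0.54 ± 0.09, adjusted p = 0.00112). Insig1 made up 60.4% and 61.3% of the summed RPKM of the INSIG genes in MEF, 83.1% and 84.6% in ES, 91.8% and 83.6% in 3F + IL6 clones and 92.3% and 91.3% in 4F clones.

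**Figure D3:**
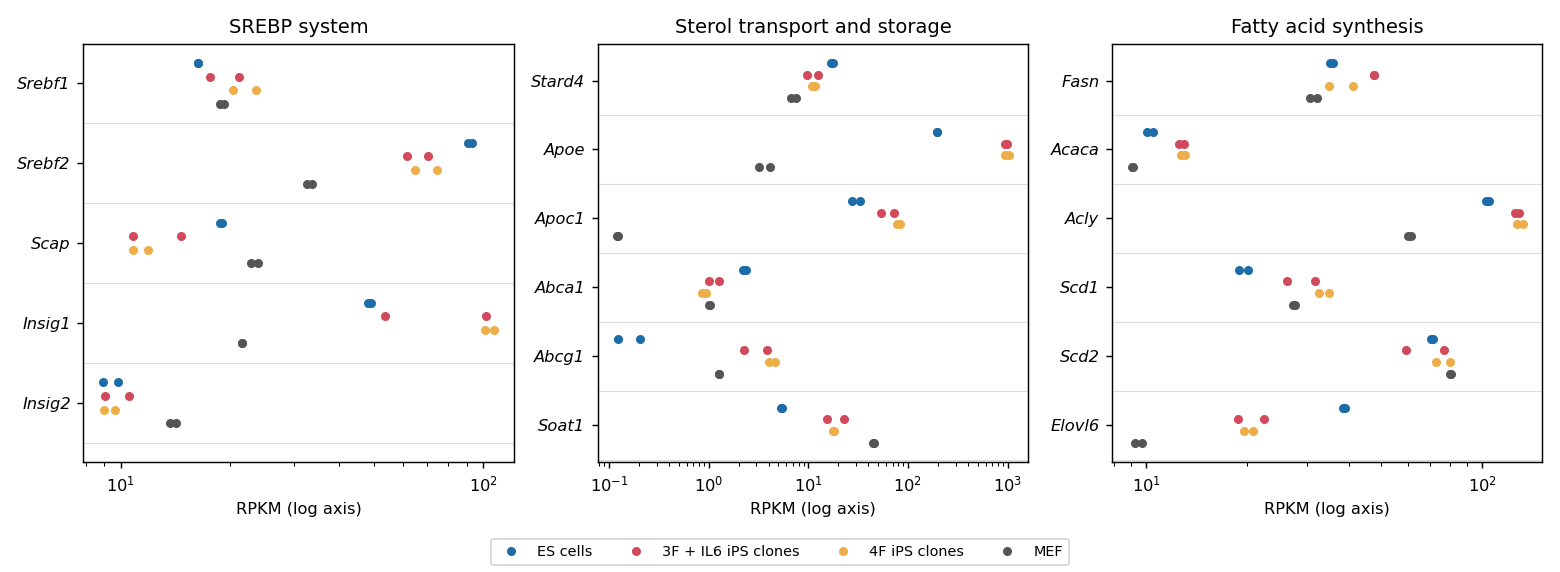
RPKM of the SREBP system, sterol transport and storage, and fatty acid synthesis genes on log axes, with 1 point per library coloured by group. Apoe runs from 3.23 RPKM in MEF to 1022 in a 4F clone, Soat1 is highest in MEF, and the 3F + IL6 clones lie apart for Insig1.

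Sterol transport and storage genes showed the widest range. All 6 were called in each comparison of clones with ES, 4 higher and 2 lower in both, beside 33.1% higher and 30.3% lower among all genes in 3F + IL6 and 33.7% and 33.5% in 4F. Apoe, which encodes an apolipoprotein of particles that carry cholesterol, had 197 and 195 RPKM in ES, 989 and 939.8 in 3F + IL6 clones, 1022 and 944 in 4F clones, and 3.23 and 4.13 in MEF. The clones lay above ES and ES lay above MEF, with no overlap. The difference to ES was 2.30 ± 0.09 (adjusted p = 4.99e-06) in 3F + IL6 and 2.32 ± 0.09 (adjusted p = 4.95e-06) in 4F, and ES exceeded MEF by 5.40 ± 0.09 (adjusted p = 1.99e-08). Apoc1, which lies next to Apoe on chromosome 7 and encodes another apolipoprotein, had 32.98 and 27.3 RPKM in ES, 71.7 and 53.9 in 3F + IL6 clones, 83.4 and 78.0 in 4F clones, and 0.124 and 0.121 in MEF. It followed the order of Apoe, with differences to ES of 1.03 ± 0.14 (adjusted p = 0.000786) and 1.40 ± 0.14 (adjusted p = 0.000179). Its lowest MEF value amounts to about 1.16 estimated reads, so no fold against MEF is given.

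The sterol exporters moved apart. Abcg1, which passes sterol to lipoproteins, had 0.203 and 0.124 RPKM in ES, 3.81 and 2.27 in 3F + IL6 clones, 4.59 and 4.06 in 4F clones, and 1.26 and 1.27 in MEF. The 4 clones lay above MEF and MEF above ES. The difference to ES was 1.77 ± 0.18 (adjusted p = 0.000171) and 2.19 ± 0.18 (adjusted p = 6.66e-05), which a pseudocount of 0.1 in place of 1 raised to 3.55 and 4.08. Against MEF, 3F + IL6 was higher by 0.81 (adjusted p = 0.00366), by 0.53 without clone 1, and under quantile normalization by 0.51 with the call lost (adjusted p = 0.0654). Abca1, the exporter that loads new lipoproteins, ran the other way, at 2.38 and 2.21 in ES, 1.00 and 1.27 in 3F + IL6 clones, 0.854 and 0.932 in 4F clones, and 1.01 and 1.04 in MEF. ES was the high group and fell to the clones by 0.63 in 3F + IL6 (adjusted p = 0.00122) and 0.80 in 4F (adjusted p = 0.000368), or 0.96 and 1.27 with a pseudocount of 0.1.

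Soat1, which esterifies cholesterol for storage, was highest in MEF, at 45.3 and 44.7 RPKM, and lowest in ES, at 5.36 and 5.47. The clones lay between, at 22.7 and 15.5 in 3F + IL6 and 17.7 and 18.1 in 4F, and overlapped each other. They were higher than ES by 1.62 ± 0.15 (adjusted p = 0.000136) and 1.56 ± 0.15 (adjusted p = 0.000151), and lower than MEF by 1.22 and 1.28. Stard4, which moves cholesterol between membranes inside the cell, had 17.04 and 17.7 RPKM in ES, 12.7 and 9.62 in 3F + IL6 clones, 11.6 and 10.9 in 4F clones, and 7.47 and 6.64 in MEF. The clones again lay between, and Stard4 fell against ES by 0.61 (SE 0.13, adjusted p = 0.00456) and 0.58 (SE 0.13, adjusted p = 0.00515).

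Genes of other cell types differed between the same groups. The 8 fibroblast markers summed to 4.90 and 5.12 RPKM in ES, 169 and 259 in 3F + IL6 clones, 159 and 134 in 4F clones, and 2518 and 2502 in MEF. All 8 were called higher in each kind of clone than in ES. Among all genes tested, 33.1% were higher and 30.3% lower than in ES in 3F + IL6, and 33.7% and 33.5% in 4F. Against MEF, 2 of the 8 were higher and 6 lower in 3F + IL6, beside 49.4% and 32.6% of all genes. In 4F, 0 were higher and 6 lower, beside 49.2% and 34.4%. The mean of Dcn was 55.3 RPKM in 3F + IL6, 27.7 in 4F and 34.2 in MEF. That of Lum was 7.65, 3.14 and 3.75 in the same order. The 7 macrophage markers in the files summed to 15.4 and 17.4 in ES, 56.4 and 54.2 in 3F + IL6 clones, 55.8 and 51.5 in 4F clones, and 8.01 and 8.11 in MEF. Cd68 held the largest part of these sums in ES and the clones, with means of 13.9 in ES, 27.6 in 3F + IL6 and 32.4 in 4F. Lyz2 was at 0 in ES and at 16.2 to 28.7 in the clones, while Csf1r stayed under 0.2 in every ES and clone library. Fcer1g had means of 1.97 in ES, 0.687 in 3F + IL6 and 1.42 in 4F and was not called against ES. Of the 5 macrophage markers tested, 4 were higher and 0 lower in 3F + IL6 than in ES. In 4F 3 were higher and 0 lower, beside the shares of all genes above. The endoderm markers, from a lineage that makes apolipoproteins in the embryo, summed to 10.3 in both ES libraries, 8.87 and 13.4 in 3F + IL6 clones, 14.2 and 11.2 in 4F clones and 21.4 and 21.5 in MEF, with Ttr and Afp at or near 0 in all 8 libraries. Most of the endoderm sum in MEF was Dab2, with a mean of 19.2 RPKM there. Of the 6 endoderm markers tested, 2 were higher and 2 lower in 3F + IL6 clones than in ES, near the shares of all genes given above. In 4F clones 3 were higher and 2 lower, beside 33.7% and 33.5% of all genes. Hnf4a, a transcription factor of visceral endoderm and liver, was 0.172 and 0.0603 RPKM in ES, 2.48 and 1.92 in 3F + IL6 clones, 2.31 and 2.17 in 4F clones, and 0 in both MEF libraries. The clones lay above ES, by 1.51 ± 0.11 (adjusted p = 4.7e-05) in 3F + IL6 and 1.54 ± 0.11 (adjusted p = 4.44e-05) in 4F. Dab2 was also higher in both kinds of clone than in ES and Amn in 4F, while Gata6 and Sox7 were lower in both. The adipocyte markers summed to 2.55 to 3.00 in ES, 8.08 to 10.4 in the clones and 23.6 and 24.4 in MEF. ES was the high group for the 5 neural progenitor markers, which summed to 10.4 and 10.8 there. Their sums were 1.16 and 1.87 in 3F + IL6 clones, 1.05 and 1.41 in 4F clones, and 1.82 and 1.86 in MEF. In MEF, Apoe (3.23 and 4.13 RPKM) and Apoc1 lay below ES, and Abcg1 and Soat1 lay above ES. The part of cells of other types in the differences of Apoe, Apoc1, Abcg1 and Soat1 was not tested.

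Genes of fatty acid synthesis differed less. Acly, which makes cytosolic acetyl-CoA from citrate for both pathways, had 102 and 105 RPKM in ES, 125 and 129 in 3F + IL6 clones, 132 and 127 in 4F clones, and 61.4 and 60.2 in MEF. The clones lay above ES and ES above MEF, with differences to ES of 0.29 ± 0.05 (adjusted p = 0.00133) and 0.32 ± 0.05 (adjusted p = 0.000777). Acaca, the carboxylase that makes malonyl-CoA, showed the same order in a narrow range, with 10.4 and 10.0 in ES, 12.6 to 13.0 in the clones and 9.05 and 9.14 in MEF. Its calls against ES (0.29 in 3F + IL6 and 0.30 in 4F) were lost without the second ES library, at 0.27 in both (adjusted p = 0.0597 and 0.0511). Fasn, the synthase, was 35.3 and 36.0 in ES, 47.4 and 47.7 in 3F + IL6 clones, 41.2 and 35.0 in 4F clones, and 30.8 and 32.1 in MEF. It rose against ES in 3F + IL6 (0.41 ± 0.08, adjusted p = 0.00367), and its call in 4F against MEF (0.26, adjusted p = 0.0166) was lost under median centring (0.19, adjusted p = 0.0728), quantile normalization (0.11, adjusted p = 0.228), without 4F clone 1 (0.15, adjusted p = 0.0681) and without the first MEF library (0.23, adjusted p = 0.0934).

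Elovl6, which lengthens palmitate, fell in both kinds of clone against ES. It had 38.6 and 38.9 RPKM in ES, 18.7 and 22.5 in 3F + IL6 clones, 19.5 and 20.7 in 4F clones, and 9.26 and 9.72 in MEF. The clones lay between ES and MEF, below ES by 0.89 (SE 0.09, adjusted p = 0.000197) and 0.91 (SE 0.09, adjusted p = 0.000158) and above MEF by 1.04 and 1.01. The desaturase Scd1 was 18.9 and 20.0 in ES, 31.8 and 26.2 in 3F + IL6 clones, 35.1 and 32.5 in 4F clones, and 27.8 and 27.4 in MEF. ES was the low group, and Scd1 rose against it by 0.55 ± 0.10 (adjusted p = 0.00215) and 0.77 ± 0.10 (adjusted p = 0.000414). Its call in 4F against MEF (0.28, adjusted p = 0.0262) was lost under median centring (0.21), quantile normalization (0.15), and without 4F clone 1 (0.23), the first MEF library (0.29) or the second (0.27), with adjusted p from 0.0833 to 0.212. The related desaturase Scd2 ranged only from 59.2 to 80.8 RPKM and was called in no comparison. Scd1 made up 20.8% and 22.1% of the summed RPKM of these desaturases in ES, 29.3% to 30.9% in the clones and 25.6% and 25.5% in MEF; reads shared by the 2 genes were not resolved.

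Of all 33 genes, 11 had all 4 clones above every ES and MEF library, beside 23.5% of all genes tested. They were Fdps, Lss, Tm7sf2, Nsdhl, Dhcr7, Insig1, Apoe, Apoc1, Abcg1, Acaca and Acly. Only Hsd17b7 and Scap had all 4 clones below, beside 14.9% of all genes. For 8 genes, Acat2, Hmgcs1, Idi1, Sqle, Srebf2, Stard4, Soat1 and Elovl6, the clones lay between the ES and MEF libraries, beside 26.7% of all genes. ES was above MEF for each of these 8 other than Soat1.

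Between the kinds of clone, little differed. Pmvk was the 1 member called, lower in 3F + IL6 by 0.63 (SE 0.08, adjusted p = 0.0257). None was called higher, beside 0.773% higher and 0.568% lower among all genes tested. An unadjusted limma p under 0.05 was found for 5 of the 33 members, and for 3198 of all 13200 genes tested. The call of Pmvk was lost in a fit of the 4 clone libraries (adjusted p = 0.153), without 4F clone 1 (−0.56, adjusted p = 0.166) or clone 2 (−0.70, adjusted p = 0.125), and without any single ES or MEF library (adjusted p = 0.0725 to 0.085). Its values nonetheless did not overlap, at 38.1 and 39.6 RPKM against 57.9 and 63.6. A difference that was not called does not show that the kinds of clone were alike: for Insig1 the SE was 0.25, and for Mvd and Abcg1 0.17 and 0.18. The number of members called here ran from 0 to 15 as each library was left out, with 15 without 3F + IL6 clone 1 and 3 without 3F + IL6 clone 2. Leaving out either clone also removes the spread within that pair from the fit.

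The clones within a kind differed from each other more than the paired ES or MEF libraries did. Clone 2 was lower than clone 1 for 24 of the 33 genes in 3F + IL6, beside 39.1% of all genes tested, and for 25 of 33 in 4F, beside 47.6%. The second library was likewise lower for 21 of 33 in ES, beside 49.6%, and for 23 of 33 in MEF, beside 49.4%. In 3F + IL6 17 of 33 differed by more than 0.2 on the log2 scale, beside 46.5% of all genes, and in 4F 4 of 33, beside 21%. In ES and in MEF 1 of 33 did, beside 8.79% and 6.74%. The largest 3F + IL6 differences were −0.91 for Insig1, −0.56 for Abcg1, −0.55 for Mvd and −0.53 for Soat1, while Hsd17b7 and Scap were each higher in clone 2 by 0.41. The fibroblast marker sum was also higher in clone 2, 259 against 169. What set the clones apart was not tested.

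**Figure D4:**
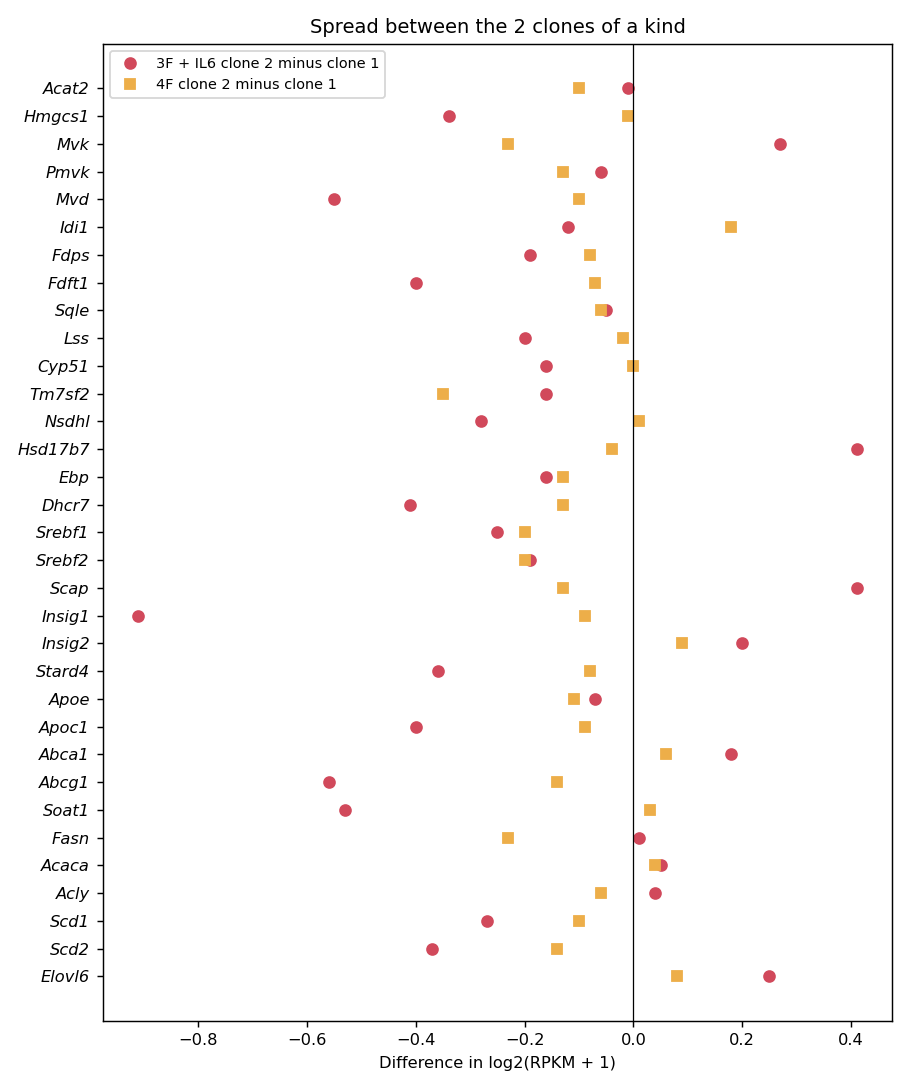
Difference in log2(RPKM + 1) between clone 2 and clone 1 for the 33 genes, in 3F + IL6 (red circles) and 4F (orange squares). In 3F + IL6 Insig1 lies farthest out at −0.91, and in 4F Tm7sf2 does at −0.35.

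Other genes of the same pathways were counted from lists chosen by function. Among all genes tested, 33.1% were higher and 30.3% lower in 3F + IL6 than in ES, 33.7% and 33.5% in 4F than in ES, and 49.7% and 32.0% in ES than in MEF. Among 10 genes of sterol uptake and lysosomal release, 8 were higher and 1 lower in 3F + IL6 clones than in ES, 7 were higher and 1 lower in 4F clones, and 1 was higher and 7 lower in ES than in MEF. Lrp1, a receptor that takes up lipoproteins carrying apolipoprotein E, was 2.73 and 2.72 RPKM in ES, 19.0 and 14.1 in 3F + IL6 clones, 23.8 and 18.6 in 4F clones, and 42.0 and 42.6 in MEF, in the order of Soat1. Of 8 further sterol synthesis genes, 1 was higher and 3 lower in 3F + IL6 than in ES, and 2 were higher and 1 lower in 4F. Against MEF, 4 of these 8 were higher and 3 lower in ES and in 4F, and 2 were higher and 3 lower in 3F + IL6. Their median differences to MEF were 0.28 in ES, 0.05 in 4F and 0.03 in 3F + IL6. Among all genes tested, 49.2% were higher and 34.4% lower in 4F than in MEF, and 49.4% and 32.6% in 3F + IL6. Of 6 SREBP and LXR factors, 4 were higher and 2 lower in each kind of clone; Mbtps1, the protease that makes the first cut in SREBP, was 62.2 and 61.2 in ES, 29.5 and 39.8 in 3F + IL6 clones, 28.9 and 30.4 in 4F clones, and 30.4 and 30.0 in MEF. Like Cyp51, it was high in ES and near the MEF level in the clones.

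Of 21 further fatty acid genes tested, 9 were higher and 4 lower in 3F + IL6 clones than in ES, and 11 were higher and 4 lower in 4F clones, beside 33.1% and 30.3%, and 33.7% and 33.5%, of all genes. Slc25a1, the mitochondrial carrier that exports the citrate used by Acly, was 28.5 and 27.0 RPKM in ES, 88.8 and 65.1 in 3F + IL6 clones, 80.1 and 76.4 in 4F clones, and 49.0 and 47.9 in MEF. All 4 clones lay above MEF, and MEF above ES. Of 14 triglyceride and phospholipid genes, 5 were higher and 4 lower in each kind of clone, near those shares. Lpin1, a phosphatidate phosphatase, was 1.95 and 2.10 in ES, 21.1 and 11.3 in 3F + IL6 clones, 26.7 and 24.0 in 4F clones, and 1.03 and 0.871 in MEF, with the clones above all other libraries. Of 4 oxysterol enzymes tested, 3 were higher in 3F + IL6 than in ES and 2 in 4F, all at low levels.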

How the data were processed

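Poly-A RNA from 8 samples was sequenced as 50 bp reads after TruSeq preparation from 500 ng of total RNA, per the labels' protocols. The genome build was mm10, per the submitters' processing notes. The sources used here do not give the aligner, counting tool, gene models or use of strand. The values deposited by the authors, 1 per gene and library, were taken to be RPKM because low values step by gene length and library. The file headers name no unit. Of the low values, 52.8% to 56.7% came out whole within 0.1 read, so counts were not recovered, no count test was run, and depths are estimates.

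From these values, log2(RPKM + 1) was fitted with limma 3.58.1 in R 4.3.3 (trended, 8 samples, no replicate block; 6.94 degrees of freedom; median SE 0.102) after a filter of RPKM 1 in 2 samples. P-values were two-sided and adjusted by Benjamini-Hochberg over 13200 genes within each of 6 comparisons, at 0.05. A log2 difference on this scale understates changes of low genes. Clones were derived independently and ES and MEF libraries are biological replicates, per the labels.

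The 33 genes and the lists were chosen with earlier results of these data known. Any of the 33 could be named; other pathway genes were named among the 4 smallest p of a list in a comparison, and cell type markers where one was at 0 or under 1 RPKM in a library. Cd68 and Dab2 were named after their values were seen. Overlaps are from GENCODE M21, promoters from RefSeq. Alternatives were other pseudocounts, filters, scalings, variance models, sample sets, a replicate block and each library left out.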

Additional observations from a re-analysis of the deposited data

How the results depend on the processing

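Higher and lower calls were added together here, and lower calls alone could move further, as given above for quantile normalization against MEF. The total number of members called stayed within 1.5 times its reported value under all 17 alternatives in the 5 comparisons with ES or MEF. Between the kinds of clone it was 1, and it became 0 in a limma fit of the 4 libraries compared, where 3 members had an unadjusted p under 0.05; leaving out each library in turn gave 0 to 15. With 1 ES, MEF or 4F library left out it was 0, with 2 to 4 members at an unadjusted p under 0.05. The cause was not tested. Over all genes that comparison gave 177 calls, 17 in the fit of 4 libraries, and 1 to 4782 as each library was left out. Single members were followed only for the 137 differences with an unadjusted limma p under 0.05 in the reported fit. Of 2320 values for these differences, 2246 kept their direction and side of the threshold, 57 lost the call, 17 gained it and 0 reversed. Calls gained by the other differences are not in these counts. Of the lost calls, 42 came from leaving out a library. Replicate numbers were not shown to pair samples: same-numbered deviations correlated from −0.06 to 0.21 across the 6 comparisons. With the replicate block, 1, 24, 24, 27, 28 and 26 members were called, against 1, 24, 24, 26, 28 and 26 without it, in the order 3F + IL6 against 4F, 3F + IL6 and 4F against ES, and 3F + IL6, 4F and ES against MEF. Groups of 2 limit all tests, and the low values of Apoc1 and Abcg1 are limited by depth.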
